A study of Mus musculus with 4 samples.

Results

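Inhbe, Gdf15, Fgf21, Stc2, Adm2 and Vldlr are known targets of the integrated stress response whose products are secreted or displayed on the cell surface. These 6 of the 55335 genes in the count table were chosen by symbol as such targets, with their lactate-minus-control differences in the same libraries already known. The differences of the 6 genes between the groups are therefore given as a description, with no p-value, and the calls that the fit over all genes made for them are counts that carry no evidence. RNA-seq was performed on the mouse embryonic stem cell (ESC) line AB2.2, with 2 control libraries from cells without added lactate and 2 libraries from cells kept in 50 mM lactate for 24 h. Both groups were grown on mouse embryonic fibroblast feeders in medium with fetal bovine serum, leukemia inhibitory factor, CHIR99021 (a GSK3 inhibitor) and PD0325901 (a MEK inhibitor). The libraries therefore hold RNA of stem cells and of feeders. A lower share of a cell type and less RNA per cell of that type cannot be told apart in such bulk samples. A single line was used, no vehicle is named for the control, and nothing says that the replicates came from separate cultures, so that p-values measure only the spread between these libraries, which may be technical. Between 18067562 and 19077885 reads per library were assigned to genes, and 18661 genes passed the filter on low counts.

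In the integrated stress response, kinases that sense amino acid shortage, unfolded proteins, heme deficiency or viral RNA phosphorylate the translation initiation factor eIF2. General translation falls, while the mRNA of the transcription factor ATF4 is translated more. ATF4, often paired with a C/EBP protein, then activates genes for amino acid uptake and synthesis and also a small group of genes whose products leave the cell or face its outside. GDF15 and FGF21 are hormones known to be released from stressed tissues. INHBE is the subunit of activin E, a liver-derived member of the TGF-beta superfamily. STC2 is a secreted glycoprotein that blocks the protease PAPP-A, ADM2 (intermedin) is a peptide of the calcitonin family, and VLDLR is a lipoprotein and reelin receptor.

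The DNA in front of these genes was searched for the composite ATF4 and C/EBP site, written TGATGNAA, on both strands, because it is the sequence through which ATF4 is known to act. RefSeq promoter windows on GRCm38.p6, from 250 bases before to 50 bases after each transcript start, were given for all 6 genes. The letters occurred in 3 of the 6 genes, Inhbe, Fgf21 and Vldlr, and in 1304 of all 32851 windows (3.97%), or in 1219 of 27025 genes (4.51%). All 3 matches were TTGCATCA, which is the same letters on the opposite strand. The matches are printed in the direction of transcription, 30 bases each, with the match in capitals.
Inhbe: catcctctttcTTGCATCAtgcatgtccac
Fgf21: agacccccccaTTGCATCAtccgtccaggc
Vldlr: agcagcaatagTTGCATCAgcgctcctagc
The Inhbe stretch is chr10:127352011-127352040 on the minus strand, with the match 181 to 174 bases before the RefSeq start. The GENCODE transcript of Inhbe starts 2563 bases further upstream, so that in GENCODE the match lies in an untranslated exon. The Fgf21 stretch is chr7:45615611-45615640 on the minus strand, with the match 139 to 132 bases before the start that RefSeq and GENCODE share. The Vldlr stretch is chr19:27216809-27216838 on the plus strand, 200 to 193 bases before the downstream one of its RefSeq starts and inside an exon of a retained-intron transcript. The letters were not in the windows of Gdf15, Stc2 and Adm2. The full cAMP response element, TGACGTCA, was in none of the windows of the 6 genes and in 1.79% of all windows. The TATA box letters TATAAA were in 13.6% of all windows and, of the 6 genes, in Fgf21, 28 to 23 bases before the start. The 250 bases before the Fgf21 start (chr7:45615491-45615740, minus strand) hold both matches and are printed because Fgf21 was listed at 0 reads in both control libraries.
Fgf21 upstream region: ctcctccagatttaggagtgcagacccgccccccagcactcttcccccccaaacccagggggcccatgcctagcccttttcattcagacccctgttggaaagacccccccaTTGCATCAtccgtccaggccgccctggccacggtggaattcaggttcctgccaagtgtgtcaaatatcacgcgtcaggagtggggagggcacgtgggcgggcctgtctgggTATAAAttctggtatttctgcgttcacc
The capitals mark TTGCATCA and TATAAA. A match is a description of the DNA, and binding at these letters was not measured in the files used here.

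All 6 genes were higher in both lactate libraries than in either control library. Of the 5 that passed the filter on low counts, 4 were called upregulated (adjusted p-value under 0.05 in edgeR's quasi-likelihood test and a change of more than 2-fold). Among all genes tested, 103 of 18661 (0.552%) were called upregulated, 65 (0.348%) downregulated, and 27% had both lactate libraries above both control libraries in CPM (read counts scaled by TMM to a common library size). At an unadjusted p under 0.05, 2186 of all genes tested (11.7%) were higher and 2125 (11.4%) lower, the shares beside which such counts for the lists are to be read. The 6 genes were selected on this contrast, and nothing is read from these counts. Limma, used as an alternative, called 0 genes of the whole table in either direction. Its lack of calls therefore says nothing about a list. In TPM, the level that RSEM gives per transcript length, the 6 genes together reached 14.74 and 15.86 without lactate and 53.04 and 50.13 with it.

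**Figure D1:**
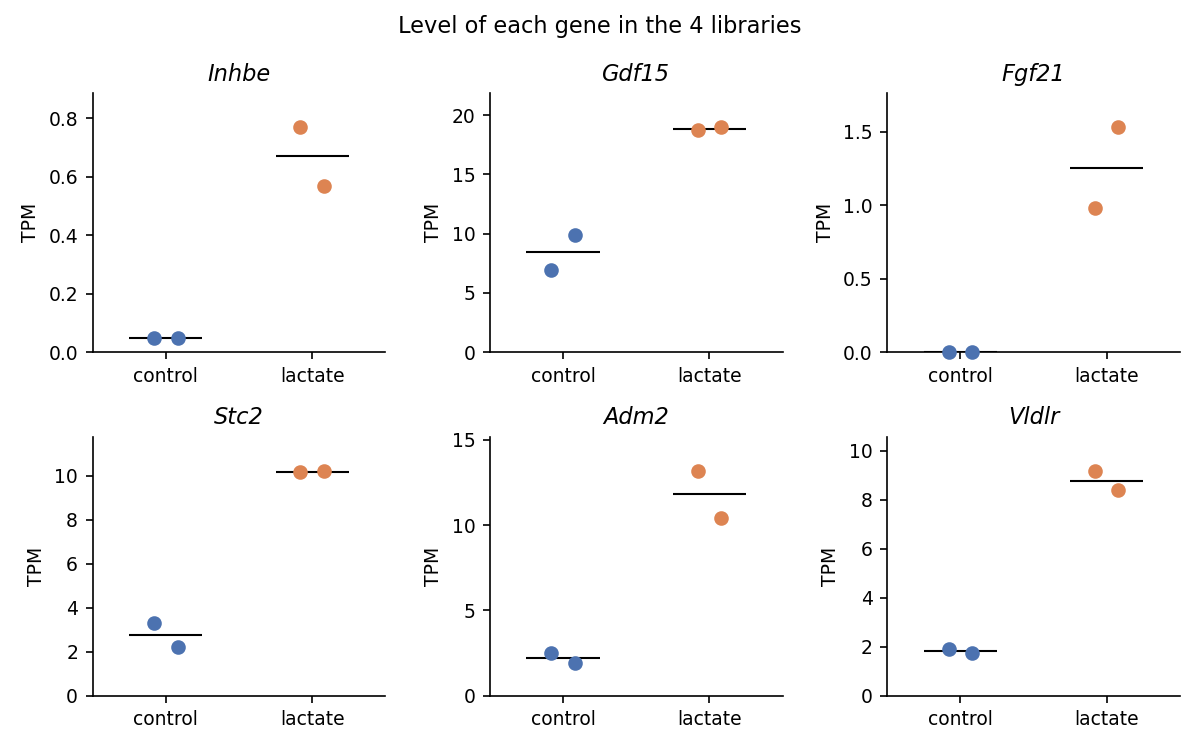
Level of each gene in TPM (vertical axis, a separate scale for each gene) in the 2 control libraries (blue) and the 2 lactate libraries (orange), with the group mean as a line. In each of the 6 panels both lactate libraries lie above both control libraries, and the Fgf21 control libraries lie at 0.

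Among the ligands of the TGF-beta superfamily, Inhbe (chr10:127348857-127354411, minus strand) was close to silent without lactate. It had 3 and 3 reads without lactate and 48 and 42 reads with lactate, and the groups did not overlap. The ratio of the summed reads, 90 against 6, relative to the TMM-scaled library sizes, was 14.2, with a 95% exact interval from 6.27 to 39.7 that covers counting error only. The fitted log2 fold change was 3.78 ± 0.39 (SE). Inhbe passed the filter on low counts through the lactate libraries alone, so that it had to differ in order to be tested. Its TPM was 0.05 in each control library and went to 0.77 and 0.57 with lactate, the lowest TPM of the 6 genes there. That rank rests on a length of 5319 bases. In CPM, Inhbe (mean 2.36 with lactate) lay above Fgf21 (0.570).

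Gdf15 (chr8:70629393-70632456, minus strand), the circulating stress hormone that acts through GFRAL in the hindbrain, was the gene of the 6 with the highest TPM in both groups. Its reads were 141 and 183 without lactate and 320 and 372 with lactate. The CPM were 8.15 and 9.64 against 17.2 and 18.9, a log2 fold change of 1.02 ± 0.18. The groups did not overlap, but this was the smallest change of the 5 genes tested. At 2.02-fold it lay just past the 2-fold limit, and its adjusted p-value did not pass, so that it was the one tested gene of the 6 that was not called. It was called when lactate replicate 1 was left out (log2 fold change 1.06).

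Fgf21 (chr7:45613886-45615490, minus strand), an endocrine fibroblast growth factor of liver and fat, had no read in either control library and 8 and 14 reads with lactate. It stayed below the count filter and has no value in the main test. It was called in the fit with no filter, where its fold change depends on the prior count and is no bound, and not in the other fits that gave it an adjusted p-value. A floor of 3 reads in each control library corresponds to a mean of 0.166 CPM, against which the mean lactate level of 0.570 CPM was at least 3.44-fold higher. The bound was at least 2.60-fold for lactate replicate 1 and 4.28-fold for lactate replicate 2, so that even its direction rests on 22 reads. RSEM assigned it 7 and 12 reads with lactate and 0 without it.

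Of the other secreted products, Stc2 (chr11:31357307-31370074, minus strand) had 166 and 116 reads without lactate and 437 and 473 with lactate. The CPM were 9.60 and 6.11 against 23.5 and 24.0, and the log2 fold change was 1.60 ± 0.24, or 3.03-fold. The control libraries lay further apart than the lactate libraries, and the groups did not overlap. Adm2 (chr15:89322720-89324731, plus strand) had 33 and 24 reads against 167 and 142. Its CPM were 1.91 and 1.26 against 8.98 and 7.20, and the log2 fold change was 2.35 ± 0.28, or 5.10-fold. This was the second largest change among the 5 genes tested, after Inhbe.

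Vldlr (chr19:27216484-27254231, plus strand), the one receptor of the group, had 119 and 108 reads without lactate and 405 and 415 with lactate. In CPM it was 6.88 and 5.69 against 21.79 and 21.04, a log2 fold change of 1.77 ± 0.18, or 3.41-fold. Replicates of both groups lay close together, and the groups did not overlap. In the plot of fold change against level, Gdf15, Stc2 and Vldlr lie side by side at nearly the same mean CPM, while Adm2 and Inhbe are lower in level and larger in change.

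**Figure D2:**
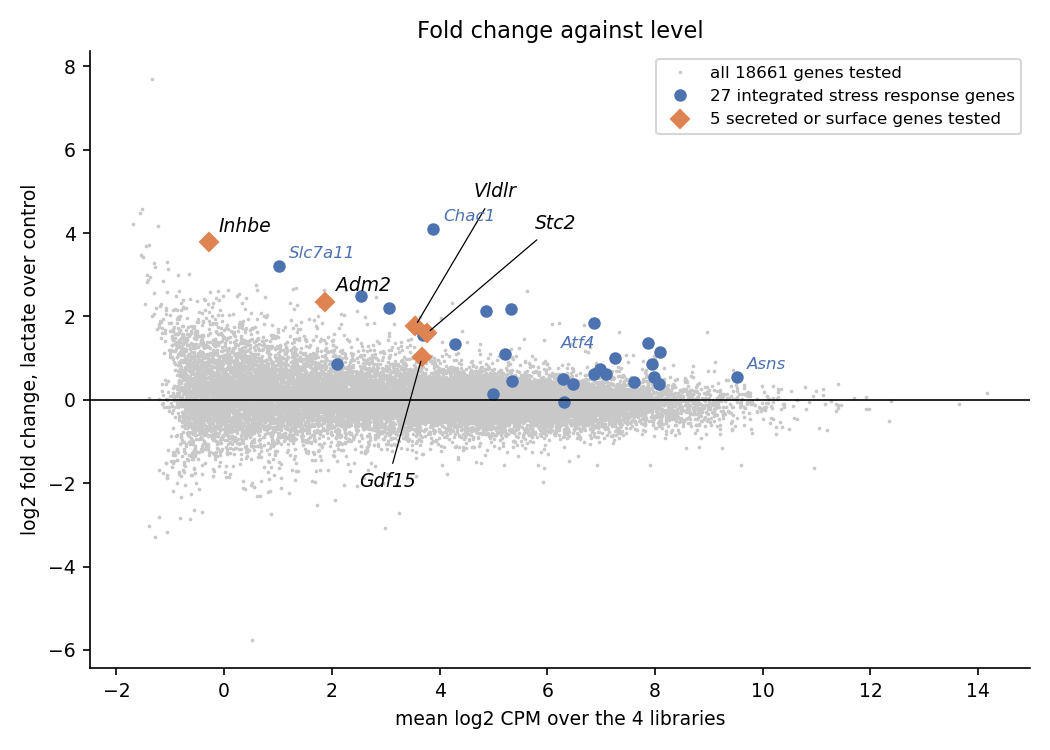
Log2 fold change, lactate over control (vertical axis), against the mean log2 CPM of the 4 libraries (horizontal axis) for all 18661 genes tested (grey), 27 other integrated stress response genes (blue) and the 5 secreted or surface genes tested (orange diamonds). The diamonds range from 1.02 for Gdf15 to 3.78 for Inhbe, and 26 of the 27 blue points lie above 0.

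Levels can be ordered between genes per length, in TPM. In the control libraries the order of the means was Gdf15 (8.45 ± 2.10, SD, n = 2), Stc2 (2.74 ± 0.76), Adm2 (2.23 ± 0.42), Vldlr (1.84 ± 0.12), Inhbe (0.05 in both) and Fgf21 (listed at 0 in both). Stc2 and Adm2 overlapped, and Adm2 and Vldlr differed by less than the SD of Adm2. In the lactate libraries the order was Gdf15 (18.9 ± 0.16), Adm2 (11.8 ± 1.95), Stc2 (10.2 ± 0.05), Vldlr (8.79 ± 0.57), Fgf21 (1.26 ± 0.39) and Inhbe (0.67 ± 0.14). Adm2 thus ranked below Stc2 without lactate and above it with lactate, but its lactate mean differed from that of Stc2 by less than the SD of Adm2. With lactate, Fgf21 (0.98 and 1.53) and Inhbe (0.77 and 0.57) did not overlap. Without lactate their order is not determined, since 0 reads of Fgf21 and 3 reads of Inhbe are both at the floor. The Inhbe level is divided by a length of 5319 bases, that of the long GENCODE transcript, and the level of a shorter transcript would be understated. The order of Inhbe and Fgf21 with lactate may depend on that length. FPKM gave the same order in both groups.

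Vldlr and Stc2 also differed in the length that RSEM gives a gene, the mean of its transcripts' lengths weighted by their estimated abundance in the library. For Vldlr the length was 4940 and 4543 bases without lactate and 3725 and 3766 bases with it, a ratio of the means of 0.790. GENCODE release M21 lists 8 transcripts of Vldlr, from 454 to 7971 bases, of which 5 are protein-coding. For Stc2 the length went from 3941 and 3945 to 3617 and 3612 bases, a ratio of 0.917, and of its 5 transcripts only that of 3940 bases is protein-coding. Gdf15, with transcripts of 1545 and 1380 bases, stayed between 1409 and 1461 bases with overlapping groups. Inhbe, Fgf21 and Adm2 have 1 annotated transcript each and a fixed length. Of 12906 genes with a varying length, 966 (7.48%) were shorter in both lactate libraries and by more than 5% in the mean, against 1342 that were longer by the same rule. The rule was written after the lengths had been seen, and the lengths come from the same libraries that chose the genes, so that no test was made. The ratio of the group means was larger in TPM than in CPM for Vldlr (4.79 against 3.41), Stc2 (3.72 against 3.02), Gdf15 (2.24 against 2.03) and Adm2 (5.30 against 5.10), and smaller for Inhbe (13.4 against 14.2). TPM and CPM differ in length, read assignment and scaling, and these parts were not separated. Which transcripts changed could not be read from these gene-level tables.

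**Figure D3:**
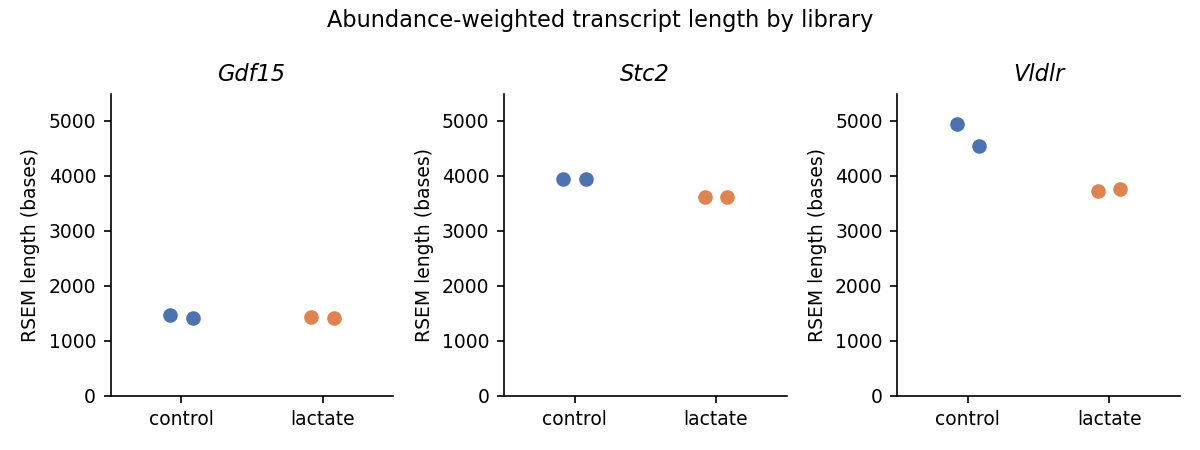
Abundance-weighted transcript length from RSEM in bases (vertical axis, from 0) for the 3 genes with more than 1 annotated transcript, in each control (blue) and lactate (orange) library. Vldlr went from 4940 and 4543 to 3725 and 3766 bases and Stc2 to 0.917 of its mean without lactate, while the Gdf15 groups overlap.

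The relatives of the 6 genes did not share the change as a group. Of 31 paralogs and family members, 25 passed the filter, of which 8 were higher and 17 lower with lactate. None was called upregulated by edgeR or DESeq2. Called downregulated were 1 (Adm) by edgeR and 2 (Adm and Lefty1) by DESeq2. At an unadjusted p under 0.05 in edgeR, 3 were higher and 6 lower. The median log2 fold change of the relatives was -0.22, that of all genes 0.01. Within the activin family, Inhba (the activin A subunit) differed by -0.04 ± 0.16 and Inhbb by -0.16 ± 0.17 on the log2 scale, far below the 3.78 of Inhbe. Inhbc (the activin C subunit), the neighbor of Inhbe, had 3 and 4 reads without and 20 and 18 with lactate, a log2 fold change of 2.32 ± 0.42, and was not called. Like Inhbe, it passed the filter through the lactate libraries alone and had to differ in order to be tested, so that no p-value from a filtered fit is given. With no filter on low counts, where it was not selected in this way, it was called (2.28, edgeR, Benjamini-Hochberg adjusted p = 0.00902). That fit called 482 genes of the whole table upregulated, against 103 in the main fit. DESeq2, fitted to all genes with a read, gave Inhbc 2.35 ± 1.00 and no adjusted p-value, and did not call it. Inhbc was the nearest to Inhbe among the relatives in both position and size of change.

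Adm (adrenomedullin), the paralog of Adm2, moved the other way. Its reads went from 67 and 51 to 11 and 14, and it fell by 2.32 ± 0.33 on the log2 scale (edgeR, Benjamini-Hochberg adjusted p = 0.0467). Without control replicate 1 the change was -2.05 and the call was lost (adjusted p = 0.0846). Another peptide of the family, Calca, had 69 and 52 reads against 112 and 116, a log2 difference of 0.83 ± 0.25 that did not pass (adjusted p = 0.129). Among the relatives of Vldlr, the reelin receptor Lrp8 differed by -0.75 ± 0.25 and the endocytic receptor Lrp2 by 0.48 ± 0.13, and neither passed. Without lactate replicate 1, Lrp8 was called downregulated.

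Stc1, the only paralog of Stc2, was low, with 18 and 9 reads against 10 and 2, and overlapped between the groups. Fgf15, the mouse hormone of the FGF21 subfamily that is made in the gut, had 17 and 14 reads against 32 and 23 and did not pass (log2 difference 0.74 ± 0.35, adjusted p = 0.269). Fgf23, the remaining member of that subfamily, had 4 and 2 reads against 6 and 5 and was below the filter. Fgf4, the main FGF of ESCs, differed by -0.25 ± 0.13. Gdf3, an ESC-expressed relative of Gdf15, differed by 0.01 ± 0.12. Lefty1, an inhibitor of Nodal signaling, had 465 and 767 reads against 185 and 299, a log2 difference of -1.42 ± 0.28 that did not pass (edgeR, Benjamini-Hochberg adjusted p = 0.0640). It was called in 6 of 15 alternatives, DESeq2 and each fit without control replicate 1 (-1.70), lactate replicate 1 (-1.18) or lactate replicate 2 (-1.76) among them.

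**Figure D4:**
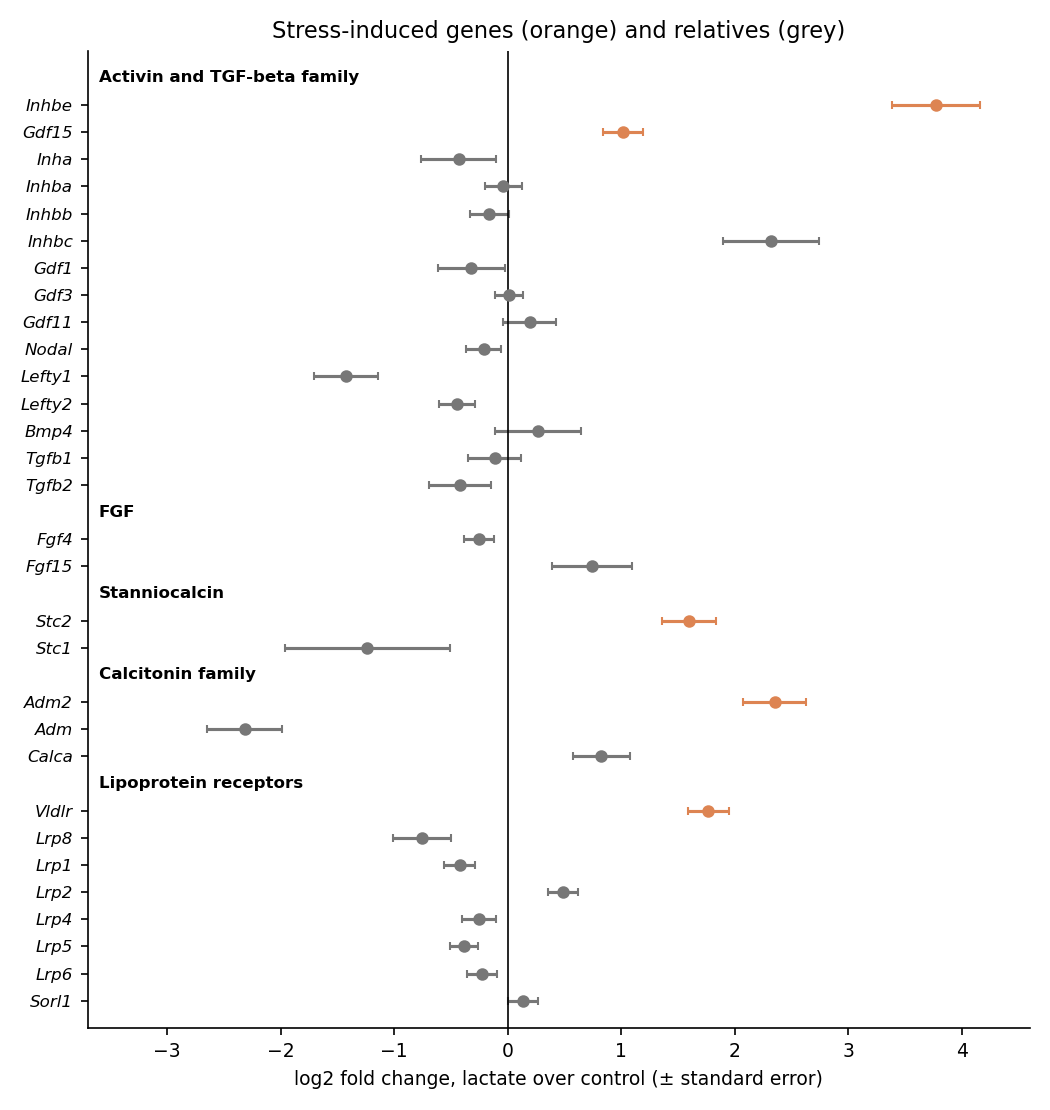
Log2 fold change, lactate over control, with its standard error (horizontal axis) for the 5 genes of the group that were tested (orange) and their 25 tested relatives (grey), by family. Inhbe (3.78) and Inhbc (2.32) stand to the right of Inhba and Inhbb (near 0), and Adm2 (2.35) lies opposite Adm (-2.32).

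Receptors, co-receptors and binding partners of the 6 products were examined next, since a secreted factor acts only on cells with its receptor. Of 27 such genes, 21 passed the filter, with 12 higher and 9 lower and a median log2 fold change of 0.03. No gene was called by edgeR or DESeq2, and 5 were higher and 4 lower at an unadjusted p under 0.05 in edgeR. Gfral, the GDF15 receptor, was at 0 reads in all 4 libraries, while its signaling partner Ret had 18 and 21 reads against 44 and 37. Klb (beta-klotho), the co-receptor of FGF21, had 90 and 82 reads against 34 and 54, with no overlap and a log2 difference of -1.05 ± 0.28 that did not pass (adjusted p = 0.103). Calcrl, the receptor on which ADM2 acts with RAMP proteins, was below the filter, with 2 and 2 reads against 15 and 9. Follistatin (Fst), which binds activins, and the activin receptor gene Acvr2a differed by 0.91 ± 0.19 and 0.89 ± 0.19 on the log2 scale, and neither passed. With no filter, Klb and Calcrl were called. Without lactate replicate 2, Klb (-1.38), Acvr2a and Calcrl were called. Calcrl entered that fit only through its 15 reads in lactate replicate 1, so that it had to differ in order to be tested.

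Other genes of the integrated stress response were set beside the secreted and surface products. This list was fixed with earlier results of these data known, so that its counts and p-values are a description. Of 27 such genes, 26 were higher with lactate, 12 were called upregulated and none downregulated by edgeR or DESeq2, and the median log2 fold change was 0.86. At an unadjusted p under 0.05, 23 were higher and 0 lower. Without control replicate 1, 8 of the 27 were called. The largest change was that of Chac1, a glutathione-degrading enzyme, at 4.10 ± 0.24 (edgeR, Benjamini-Hochberg adjusted p = 0.0165). The cystine transporter Slc7a11 (3.20), the transcription factors Atf3 (2.49) and Ddit3 (1.33), the glycine transporter Slc6a9 (2.21), the pseudokinase Trib3 (2.13) and the mitochondrial folate enzymes Mthfd2 (1.83) and Aldh1l2 (1.56) were also called, as were Nupr1, Slc7a1, Slc7a5 and Cebpg. Atf4 itself had 1677 and 2288 reads against 3347 and 5041, a log2 difference of 1.00 ± 0.21 that did not pass (adjusted p = 0.0688) but was called without control replicate 2 (adjusted p = 0.0279) and without lactate replicate 1 (adjusted p = 9.17e-05). The called genes of this list ranged from 1.09 for Cebpg to 4.10 for Chac1, and all its genes from -0.05 to 4.10. Inhbe, Adm2, Vldlr and Stc2 lay within the range of the called genes, and Gdf15, at 1.02, lay below it. Nothing is read from these positions. A call itself needs a change of more than 2-fold, and the secreted and surface genes were chosen on this contrast.

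Genes of other stress pathways were read beside them. Of 12 chaperone and quality-control genes of the endoplasmic reticulum, 4 were higher and 8 lower, with a median of -0.31. Hspa5 (BiP) was called downregulated, at -1.16 ± 0.17 (edgeR, Benjamini-Hochberg adjusted p = 0.0467), and 6 were lower and 0 higher at an unadjusted p under 0.05. Without control replicate 1 the Hspa5 change was -1.29 and the call was lost. Without lactate replicate 1, Hsp90b1 was called downregulated besides Hspa5. Of 20 other secreted or surface products known from stressed cells, 16 passed the filter, with 10 higher and 6 lower and a median of 0.09. None was called by edgeR or DESeq2, with 1 higher and 1 lower at an unadjusted p under 0.05. Without lactate replicate 2, Ccl2 was called downregulated. The 2 with the largest differences were the growth factor gene Ereg, with 7 and 9 reads against 18 and 14 (log2 difference 0.91 ± 0.39, tested through the lactate libraries alone), and Manf, a secreted protein of the endoplasmic reticulum stress response (-0.84 ± 0.14), and neither passed. Vegfa differed by 0.63 ± 0.13 and did not pass.

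Some of the 6 genes have other known activators. Gdf15 is also a p53 target, and of 12 other p53 targets 5 were higher and 7 lower with a median of -0.09. None was called by edgeR or DESeq2 (2 higher and 4 lower at an unadjusted p under 0.05 in edgeR). The largest differences among them were -0.60 for Bbc3 and 0.58 for Pmaip1. Vldlr and Stc2 are also induced in hypoxia, and of 12 targets of hypoxia-inducible factors 10 were lower, with a median of -0.67. Adm and Ndrg1 were called downregulated there (Ndrg1 at -1.78 ± 0.24, edgeR, Benjamini-Hochberg adjusted p = 0.0450). None was called upregulated by edgeR or DESeq2, with 1 higher and 9 lower at an unadjusted p under 0.05. DESeq2 called 4 downregulated, Bnip3 and Egln1 besides these. In edgeR the number was 1 without control replicate 1 (Ndrg1), 4 without control replicate 2 and without lactate replicate 2 (the same 4 genes), and 3 without lactate replicate 1 (Egln1 not called). With no filter it was 5, Ankrd37 being added. Fgf21 is a target of PPAR factors in liver, and of 8 other PPAR targets 7 were tested. Of these, 2 were higher and 5 lower with a median of -0.17. None was called by edgeR or DESeq2 (0 higher and 2 lower at an unadjusted p under 0.05). Activity of these factors was not measured.

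The genes around the 6 were examined to see whether the changes extended along the chromosome. Within 100 kb between start sites lay 43 protein-coding neighbors, of which 35 were tested, with a median log2 fold change of -0.01. The 2 called upregulated were the pair of overlapping identifiers of Ddit3, 63.6 kb downstream of Inhbe, whose reads cannot be told apart with certainty. Without control replicate 1 neither was called. The main identifier had 207 and 235 reads against 546 and 633. Inhbc starts 16.02 kb upstream of Inhbe on the same strand, so that Inhbe, Inhbc and Ddit3 lie in one stretch, and the other tested neighbors there were between -0.30 and 0.58. Next to Fgf21, Fut1, a fucosyltransferase gene that starts 1.80 kb upstream on the opposite strand, had 0 and 2 reads without and 19 and 23 with lactate and was not called. It too passed the filter through the lactate libraries alone, so that it had to differ in order to be tested. In the fit with no filter, which called 482 genes of the whole table upregulated, it was called (edgeR, Benjamini-Hochberg adjusted p = 0.000725). DESeq2, fitted to all genes with a read, gave it 4.31 ± 1.36 and no adjusted p-value, and did not call it. Fut1 and Fgf21 thus were both close to 0 reads without lactate and detected with it. The other 11 tested neighbors of Fgf21 lay between -0.73 (Hsd17b14) and 1.11 (Sec1, with 22 and 44 reads against 71 and 79), and none was called. Sec1 was called upregulated without control replicate 2 and with no filter, and without lactate replicate 2 Dbp was called downregulated. The 8 tested neighbors of Gdf15 were between -0.21 and 0.30. The 5 tested neighbors of Adm2 were lower, between -0.76 and -0.45, and none was called. Stc2 and Vldlr had no protein-coding neighbor within the window.

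**Figure D5:**
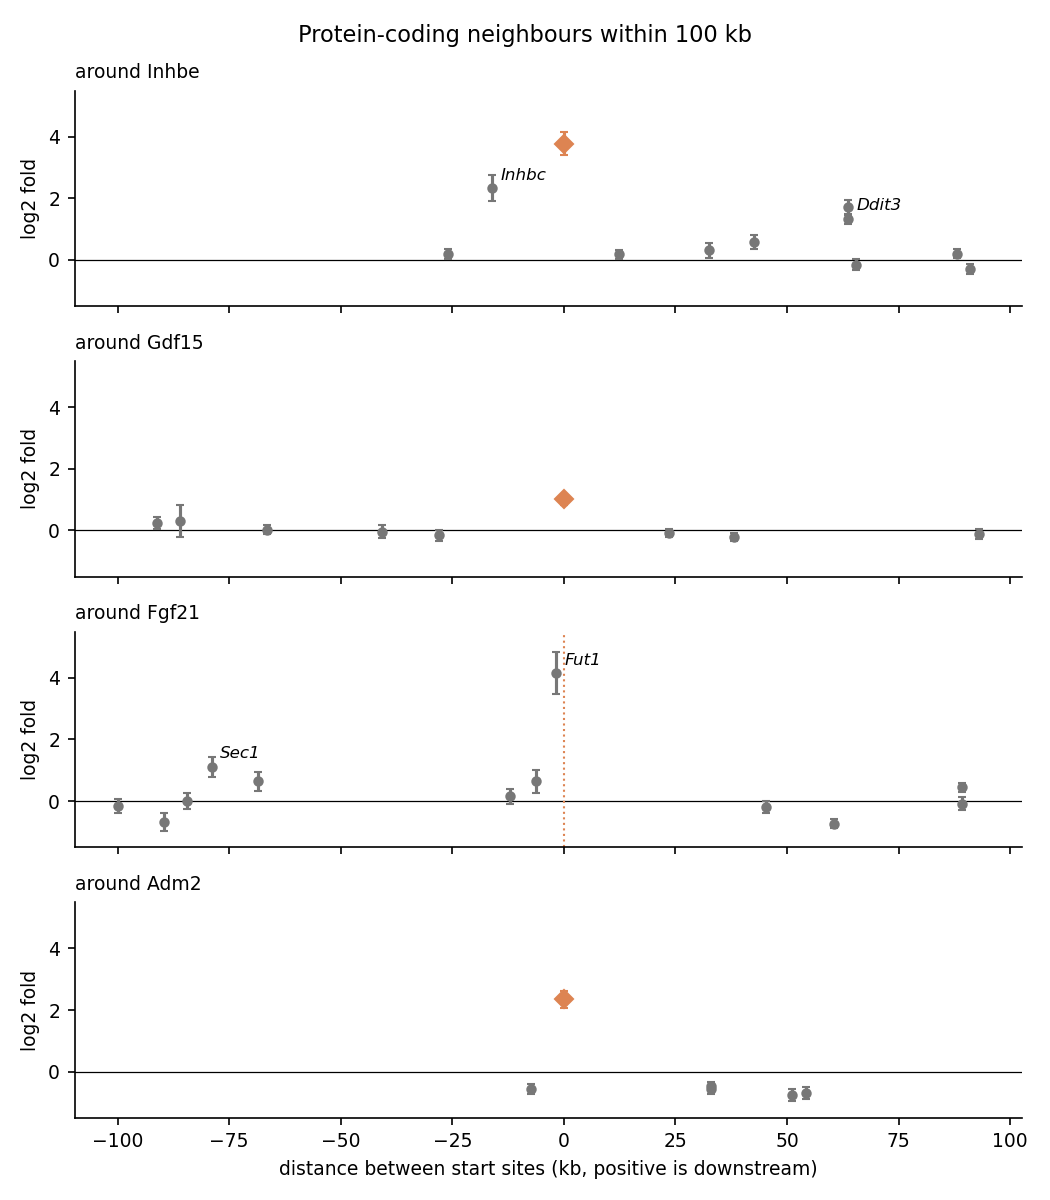
Log2 fold change, lactate over control, with its standard error (vertical axis) of tested protein-coding genes against the distance of their start sites from that of Inhbe, Gdf15, Fgf21 or Adm2 (horizontal axis, in kb). Orange diamonds are the genes themselves, the dotted line marks Fgf21, which was not tested, and the fitted value of Fut1 rests on 0 and 2 control reads. Inhbc and Ddit3 stand out around Inhbe, while the neighbors of Gdf15 and Adm2 lie between -0.76 and 0.30.

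For each of the 5 tested genes the 3 genes with the most similar pattern were found, by the distance between their log2 CPM over the 4 libraries after centering. Nearest to Inhbe was Slc7a11, at a distance of 0.41, with 11 and 11 reads against 95 and 121. Nearest to Gdf15 was Dsc2, a desmosomal cadherin gene, at 0.045, and nearest to Vldlr was Dnah5, an axonemal dynein gene, at 0.022 but with 7 and 6 reads against 28 and 28. Adm2 was followed most closely by Gtsf2 (0.20), to which RSEM assigned 0 reads, and by Gjb2 (0.21) and Adtrp (0.25). Stc2 was nearest to the pseudogene Gm6494 (0.084), with 7 and 4 reads against 22 and 22. With 4 libraries such patterns are mostly the difference between the groups, and many of these genes have few reads.

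Markers of the cell types that the cultures could hold were read in the same libraries. All 8 ESC markers were tested, summing to 5589 and 7954 TPM without and 6343 and 10041 TPM with lactate, with Dppa5a the most abundant. None was called by edgeR or DESeq2, with 3 higher and 0 lower at an unadjusted p under 0.05. The 10 markers of fibroblast feeders summed to 140 and 187 TPM against 148 and 155 TPM, mostly Col1a1. Of these, 4 were higher, 6 lower and none called (0 higher and 2 lower at an unadjusted p under 0.05, and none called by DESeq2). Without lactate replicate 2, Col3a1 was called downregulated. Feeder RNA was thus present at a like summed level in both groups, and none of the 10 markers was at 0. Which cells the reads of the 6 genes came from was not tested.

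Of 8 primitive endoderm markers 6 were tested, and none passed. All 6 were higher in both lactate libraries, with a median log2 fold change of 0.68, and their sum went from 29.1 and 35.3 to 57.5 and 59.1 TPM. None was called by edgeR or DESeq2, and 3 were higher and 0 lower at an unadjusted p under 0.05. Without lactate replicate 2, Pdgfra was called upregulated. Lama1 was the most abundant. The defining factors Gata4 and Gata6 had 47 and 44 against 79 and 74 reads and 25 and 22 against 34 and 31 reads, and Sox17 and Foxa2 were below the filter with 9 reads or fewer in each library. The part of these cells in the change of the 6 genes was not tested. Of 8 trophoblast markers 5 were tested, with 1 higher and 4 lower, a summed level of 72.1 and 67.8 against 68.7 and 64.5 TPM (mostly Tfap2c), and none called by edgeR, 2 lower at an unadjusted p under 0.05 and 2 called downregulated by DESeq2 (Ascl2 and Krt8). In edgeR, Ascl2 was called with control replicate 2, lactate replicate 1 or lactate replicate 2 left out, and Krt8 without lactate replicate 2. Both were also called with no filter and in the fit with a replicate term. Mitochondrial genes took 5.48% and 2.43% of gene reads without and 5.72% and 2.82% with lactate, and so differed between the replicate numbers more than between the groups.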

How the data were processed

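RNA-seq of 2 control and 2 lactate libraries was analysed. The authors trimmed reads with cutadapt 1.16, mapped them with STAR to mm10 and deposited raw read counts per gene and, from RSEM, expected counts, TPM, FPKM and a length in bases. Neither the strand setting nor the RSEM version is given in the sources used here, so overlapping and antisense genes are uncertain. Counts were tested in edgeR 4.0.16 (R 4.3.3, limma 3.58.1) with filterByExpr, TMM (factors 0.959, 0.996, 1.004 and 1.043) and the quasi-likelihood test in its legacy form without a replicate term, with Benjamini-Hochberg adjustment over 18661 genes. Calls needed an adjusted p-value below 0.05 together with a fold change above 2. The alternatives included DESeq2 1.42.0, expected counts rounded to whole numbers, and limma-trend on log2 FPKM with pseudocounts of 1 and 0.1 for genes with a mean FPKM above 0.1. CPM means and TPM means are over 2 libraries. A fold against 0 reads was computed against a floor of 3 reads per library, and against 1 to 3 reads as a ratio with an exact 95% interval. Both cover counting error only. An exact permutation of 2 against 2 libraries cannot go below p = 0.333 (two-sided). The genes, lists, motifs and neighbor window were chosen with earlier results of these data known. Named genes are the 6 genes, called list members or the 2 largest changes, relatives, the 3 most similar genes and neighbors within 100 kb. Other list members, such as Atf4, Vegfa, Fst, Acvr2a, Calcrl and Gfral, were named after their values were seen. Of the identifiers, 55154 were in GENCODE M21 (GRCm38), which gave positions and transcripts. No protein sequences were used. Some list members are not reported here and are left out of the counts.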

Additional observations from a re-analysis of the deposited data

How the results depend on the processing

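In the 14 alternatives for Inhbe and the 15 for each of Gdf15, Stc2, Adm2 and Vldlr the genes stayed higher with lactate, with log2 fold changes of 0.51 (limma on log2(FPKM + 1)) to 3.91, 0.88 to 1.17, 1.30 to 1.94, 1.87 to 2.65 and 1.63 to 2.18. Of the 6 genes, 4 were called, against 2 with at least 10 counts in every library (a filter that removes Inhbe), 1 with the RSEM expected counts (Vldlr), and 0 with limma on log2(FPKM + 1) and 0 on log2(FPKM + 0.1). With no filter 5 were called, Fgf21 being added. Of the 27 other stress response genes limma called 0 and 0, with 23 at an unadjusted p under 0.05 in each. Leaving out a library gave 4 to 5 of the 6 genes. Upregulated genes numbered 103, but 190 in DESeq2, 482 with no filter, 27 with the RSEM expected counts, 0 and 0 in limma (smallest adjusted p 0.146 and 0.0551, and 1791 and 1819 higher at an unadjusted p under 0.05), and 45 to 502 with a library left out. Downregulated genes numbered 65, but 168 in DESeq2, 40 with library totals alone, 325 with no filter, 17 with the RSEM expected counts, 0 and 0 in limma (1123 and 1135 lower at an unadjusted p under 0.05), and 39 to 367 with a library left out. Where a group was left with 1 library, it was assumed to vary like the other. The upregulated share of calls was 61.3%, 53.1% in DESeq2 and 73.0% with library totals alone, while no scaling moved the median of all genes by more than 0.08. Same-numbered libraries deviated together across genes (correlation 0.56), but nothing says what they share. With the replicate block 761 genes were upregulated and 395 downregulated, and 5 of the 6 genes were called, Gdf15 being added. The block also called Lefty1, Stc1, Klb, Sec1, Bnip3, Ascl2 and Krt8, which the fit without it did not. It called Inhbc and Fut1 as well, which the filter admitted through the lactate libraries alone. The call of Hspa5 was kept in 9 of 15 alternatives and that of Adm in 11. The median of the other secreted genes (-0.14 to 0.20) and of the receptors (-0.02 to 0.26) changed sign. The causes were not tested. Depth limits Fgf21 and Inhbe most, with 0 and 6 control reads.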
